A study of Oryzias latipes with 6 samples.

Results

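The genes described here are those of the Wnt pathway in Japanese medaka (Oryzias latipes), from the secreted ligands to the transcription factors that answer them. Members were chosen by symbol alone, after letter case and copy suffixes such as "(2 of 2)" were set aside, and 67 of the 20459 genes of the authors' deposited table matched. They comprised 22 Wnt ligands, 2 genes of ligand secretion, 13 receptors, 3 R-spondin agonists, 13 secreted antagonists, 9 genes of intracellular transduction, 4 TCF/LEF transcription factors and ctnnbl1. The last matched by spelling only, since its product is a splicing-associated protein and no beta-catenin. No row carried the symbols wif1, lrp6 or ror2.

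Wnt proteins are lipid-modified signals that bind Frizzled receptors and LRP5/6 co-receptors. Binding stops a complex of Axin, APC and kinases from destroying beta-catenin, which then enters the nucleus and acts with TCF/LEF factors on target genes. In the skeleton the pathway favours the formation of bone by osteoblasts, and secreted antagonists of the sFRP, Dickkopf and sclerostin families restrain it. TCDD is a dioxin that activates the aryl hydrocarbon receptor, and in zebrafish it has been reported to raise the Wnt agonist gene rspo1 in regenerating fins.

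Both groups were fish of the orange-red Hd-dR strain with no transgene or mutation named in the labels. One group was held as embryos in 0.3 nM TCDD for 1 h from about 4 hours post fertilization, and the other in the solvent, 0.1% DMSO. At 20 days post fertilization the vertebral column was dissected with its muscle, fat and dermis, and 15 to 25 fish were pooled per RNA sample, giving 3 libraries a group. Expression was measured by sequencing polyA RNA on an Ion Torrent PGM.

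The authors' deposited table gives 1 value per gene and group, read here as FPKM. This measure is of fragments relative to the length of the transcript and the size of the library, so levels can be set side by side between genes. Where a pair of levels is given, the DMSO value comes first. The deposited table holds no value per library, so no SD, n or interval stands beside a level, and the depth per library is unknown. Significance is that of the authors' own test, and a gene is said to rise or fall where its q-value was under 0.05. The labels do not say if different pools were drawn from different clutches, so the spread behind the p-values may leave out that between clutches. The authors tested 3286 genes (16.1%) and 16 of the 67 Wnt genes (23.9%). Of those 16, 15 reached the lowest mean level of any tested gene, 13.7 FPKM, in both groups, and fzd10 reached it in DMSO alone. Of the 51 untested Wnt genes, 41 had a mean level under that value and 10 did not.

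Marker sums were above 0 in both groups for muscle, connective tissue, bone, cartilage and epidermis. No list covered the dermis, and epidermis is not among the tissues named above. Summed FPKM per the authors' deposited table were 97831 in DMSO and 58606 in TCDD for 8 rows of fast muscle markers. The sums were 2251 and 810 for 6 rows of fibroblast and tendon markers and 8572 and 5025 for 4 rows of epidermis markers per the authors' deposited table. For bone they were 1532 and 251 over 5 rows of osteoblast markers, and for cartilage and notochord 422 and 160 over 8 rows, per the authors' deposited table. Single genes made up most of the DMSO sums of epidermis, osteoblast and fibroblast markers. They were krt5 (8037 and 3926 FPKM), col10a1 (1363 and 185 FPKM) and col1a2 (1510 and 302 FPKM) per the authors' deposited table. The other epidermis markers, krt4, cldne and evpla, had higher values in TCDD. Fat could not be checked, because of 5 adipocyte markers only pparg was matched, untested, at 5.64 and 4.25 FPKM per the authors' deposited table. Markers of the trimmed tissues were mixed. Of the liver genes, fgb was listed at 0 in both groups, tfa had 3.36 and 21.0 FPKM untested, and apoa1b had 21.4 and 42.2 FPKM (q = 0.223), per the authors' deposited table. Of the brain and eye genes, which the spinal cord may share in part, the glial gfap had 56.6 and 43.0 FPKM (q = 0.437), the rod opsin gene rho 1.10 and 1.13 FPKM and the lens gene cryaa 2.04 and 1.28 FPKM, per the authors' deposited table.

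In TCDD fish, 3 Wnt pathway genes fell: the antagonist sfrp2, the receptor fzd10 and the Dickkopf family gene dkk3b. No tested Wnt gene rose at q under 0.05 in the authors' test, although 2 higher genes, dkk3a and fzd2, had an unadjusted p under 0.05. At that limit stood 7 of the 16 Wnt genes in either direction (43.8%), against 32.6% of all tested genes. The 3 called genes were 18.8% of the 16 tested, and 18.2% of all tested genes were called, so the share of Wnt genes called was near the background. By direction, 3 of 16 fell where 7.46% of all tested genes fell, and 0 of 16 rose where 10.7% rose. The median log2 fold change (TCDD over DMSO) was -0.29 over the 16 tested Wnt genes and 0.05 over all tested genes. Of the 59 Wnt genes above 0 in both groups, ctnnbl1 included, 32 had a higher value in TCDD and 27 a lower one.

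**Figure D1:**
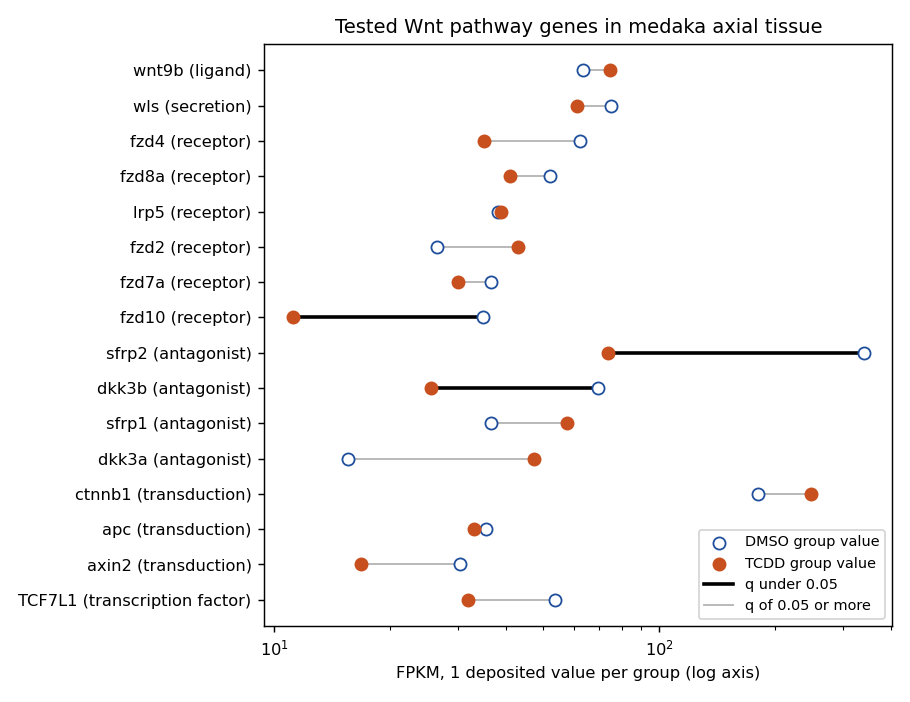
FPKM (log axis) of the 16 tested Wnt pathway genes in the DMSO group (open circles) and the TCDD group (filled circles), with 1 deposited value per group and no error. Black bars join the 3 genes with q under 0.05, sfrp2, fzd10 and dkk3b, each lower in TCDD.

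The Wnt ligands were mostly scarce. Among 22 ligand genes only wnt9b was tested, with an FPKM of 63.4 in DMSO and 74.4 in TCDD (q = 0.721) per the authors' deposited table. It was the most abundant ligand and held 32.7% of the summed ligand level in DMSO and 38.0% in TCDD. As deposited, that sum was nearly alike in both groups, at 194 and 196 FPKM per the authors' deposited table. The totals over all genes were 1.32e+06 FPKM in DMSO and 1.11e+06 FPKM in TCDD. None of the sums given here was rescaled to equal totals, so their differences depend on the scaling.

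A further 6 ligands had a mean of at least 10 FPKM but no test. The gene wnt11r, whose zebrafish product acts through the receptor MuSK on developing muscle, had 27.3 and 17.9 FPKM, and wnt10a, a ligand of skin and fin development, had 20.6 and 24.6 FPKM per the authors' deposited table. WNT7A had 19.4 and 21.5 FPKM per the authors' deposited table, at a locus that overlaps si:ch73-142c19.1 and an unnamed gene. The Wnt5 ligands, which are among those of the beta-catenin-independent branch, lay in opposite directions. Here wnt5a had 9.86 and 17.6 FPKM, and WNT5B had 13.9 and 11.0 FPKM, per the authors' deposited table. WNT4B had 13.0 and 7.36 FPKM there.

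The other 15 ligands had means of 5.45 FPKM or less. Among them wnt2ba and wnt8b were listed at 0 in both groups, 5 ligands at 0 in TCDD only, and 1 of the wnt8a rows at 0 in DMSO only. The largest value lost in this way was that of wnt3a, a canonical ligand of the tail bud, with 5.05 FPKM in DMSO and a listed 0 in TCDD, per the authors' deposited table. Several ligand genes are neighbours on the chromosome with no other gene of the table between them, and the values within a pair lay in different directions. On chromosome 21, wnt10a and wnt6a lie 22.6 kb apart, and the level of wnt6a was 4.19 times as high in DMSO as in TCDD, per the authors' deposited table, beside the higher TCDD value of wnt10a. On chromosome 7, wnt1 and wnt10b lie 2.41 kb apart, with wnt1 at an FPKM of 0.909 in DMSO and a listed 0 in TCDD, and wnt10b at 4.18 and 6.72 FPKM, per the authors' deposited table. None of these low values has a test. The secretion gene wls, whose product carries Wnt ligands to the cell surface, had 75.2 and 61.2 FPKM (q = 0.518), and porcn, which encodes the enzyme that adds their lipid, had 0.799 and 0.820 FPKM untested, per the authors' deposited table. The wls locus overlaps an unnamed gene.

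Among the 6 tested receptors 1 fell, fzd10, and 0 rose, where 7.46% of all tested genes fell and 10.7% rose. This gene (ENSORLG00000013641, chromosome 9, 19890540 to 19893052, on a build not given in the sources used here) encodes a Frizzled receptor. Its level was 34.8 FPKM in DMSO and 11.2 FPKM in TCDD, 3.12-fold lower (log2 -1.64, q = 0.0200), per the authors' deposited table. The other 5 tested receptor genes did not pass. The largest difference among them was in fzd4, whose product also binds norrin in vessels, at 62.4 and 35.1 FPKM (q = 0.0786) per the authors' deposited table. In the opposite direction, fzd2 had 26.5 and 43.1 FPKM (unadjusted p = 0.0483, q = 0.151) per the authors' deposited table. The values of fzd8a were 51.9 and 41.0 FPKM (q = 0.488), and those of fzd7a 36.7 and 30.0 FPKM (q = 0.592), per the authors' deposited table. The co-receptor gene lrp5, in which human loss of function lowers bone mass, had 38.1 and 38.9 FPKM (q = 0.948) per the authors' deposited table.

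Untested receptors included fzd6, which acts in planar polarity, at 29.0 and 17.1 FPKM, and fzd9b at 23.5 and 24.5 FPKM per the authors' deposited table. By FPKM, fzd4 led the Frizzled genes in DMSO and fzd2 led them in TCDD, while fzd10 was the lowest of the 7 named here in TCDD only. Without values per library the neighbours in this order cannot be told apart by their spread. Summed over 11 Frizzled genes, the level was 280 FPKM in DMSO and 221 FPKM in TCDD per the authors' deposited table. The Wnt5a receptor gene ror1 had 10.3 and 5.35 FPKM there, untested.

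Of 13 genes grouped as secreted antagonists by family, 4 were tested. The other 2 falls, of sfrp2 and dkk3b, were among these 4, and 0 rose. Of all tested genes 7.46% fell and 10.7% rose. The tested sfrp1 and dkk3a had higher values in TCDD without a call. The largest fall was that of sfrp2 (ENSORLG00000008332, chromosome 1, 24777627 to 24778375), which encodes a secreted protein with a Frizzled-like domain that binds Wnt ligands outside the cell. Its level was 340 FPKM in DMSO and 73.6 FPKM in TCDD, 4.62-fold lower (log2 -2.21, q = 0.00105), per the authors' deposited table. Its p of 5e-05 is the smallest the table gives and is shared by 157 genes. In DMSO, sfrp2 was the most abundant of all the Wnt genes and held 61.1% of the summed antagonist level, against 23.3% in TCDD. The 12 other antagonists summed to 216 FPKM in DMSO and 242 FPKM in TCDD per the authors' deposited table. The sfrp2 locus spans 749 bp of the genome, against a median of 5974 bp over tested genes. Such spans include introns, so they are only upper limits of the transcript length by which FPKM is scaled. The level of sfrp2 can rest on fewer reads than the same FPKM of a longer transcript.

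The genes sfrp1 and sfrp5 had higher values in TCDD, neither with a call, whereas frzb had a slightly lower one. The tested sfrp1 had 36.7 and 57.6 FPKM (q = 0.257), and the untested sfrp5 had 7.90 and 21.4 FPKM, per the authors' deposited table. The related frzb, first known from cartilage, had 10.7 and 10.4 FPKM per the authors' deposited table, untested.

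The dkk3 copies lay in opposite directions. Their products belong to the Dickkopf family by sequence, but mammalian DKK3 differs from the classical LRP-binding Dickkopf proteins and its effect on Wnt signalling is less settled. The copy dkk3b (ENSORLG00000019295, scaffold212, 632804 to 637852) fell from 69.5 to 25.6 FPKM, 2.71-fold lower (log2 -1.44, q = 0.0373), per the authors' deposited table. Its paralogue dkk3a had 15.6 and 47.2 FPKM, 3.04-fold higher, but did not pass (log2 1.60, unadjusted p = 0.0117, q = 0.0596), per the authors' deposited table. In DMSO the greater level was that of dkk3b, and in TCDD that of dkk3a. The difference between the copies' changes was not tested, and whether reads could be shared between them is not known. The classical antagonist genes dkk1a (7.42 and 9.99 FPKM) and dkk2 (0.941 and 2.79 FPKM) were low and untested per the authors' deposited table.

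Sclerostin, the product of sost, is made by osteocytes in mammals, whereas medaka bone has no embedded osteocytes. The gene had an FPKM of 10.3 in DMSO and 3.82 in TCDD per the authors' deposited table, untested. The related sostdc1b had 30.5 and 26.4 FPKM, and sostdc1a 5.95 and 4.72 FPKM, per the authors' deposited table, both untested. Among the extracellular regulators, notum1a, which encodes an enzyme that strips the lipid from Wnt ligands and is itself a Wnt target, had 19.6 and 31.1 FPKM per the authors' deposited table, also untested. The R-spondin genes, whose products keep Frizzled receptors at the cell surface, were all untested and all had the higher value in TCDD. Of these rspo1 had 7.26 and 16.7 FPKM, rspo2 6.16 and 7.41 FPKM and rspo3 2.26 and 2.67 FPKM per the authors' deposited table.

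**Figure D2:**
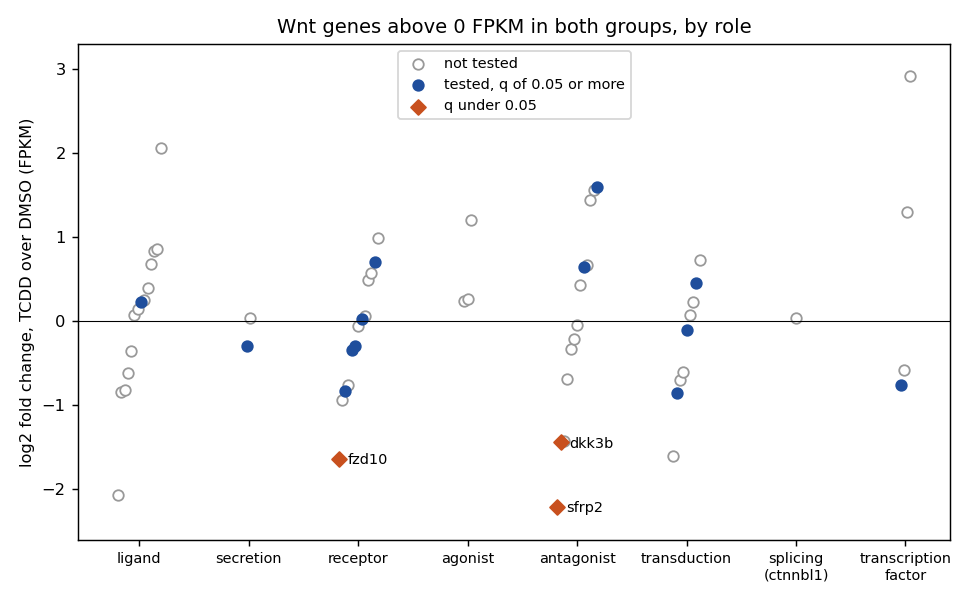
Log2 fold change of FPKM (TCDD over DMSO) for the 59 Wnt genes above 0 in both groups, ctnnbl1 included. Each gene is 1 point, grouped by role on the horizontal axis. The 3 genes with q under 0.05 (diamonds) are 1 of 6 tested receptors and 2 of 4 tested antagonists, where 18.2% of all tested genes were called. Most points are untested genes (open circles).

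None of the 3 tested genes of the intracellular core passed the authors' test, where 18.2% of all tested genes passed. Of the 3, 1, axin2, had an unadjusted p under 0.05, as did 32.6% of all tested genes. The beta-catenin gene ctnnb1, which also serves cell adhesion, had an FPKM of 180 in DMSO and 248 in TCDD (q = 0.262), and was the most abundant Wnt gene in TCDD per the authors' deposited table. The scaffold gene apc had 35.5 and 33.0 FPKM (q = 0.819) per the authors' deposited table; its direction flips when the groups are scaled to equal totals.

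Axin2 is both a brake on beta-catenin and a widely used readout of it, since its gene is a direct target of the pathway. The tested copy, on chromosome 8, had 30.3 and 16.8 FPKM (log2 -0.86, unadjusted p = 0.0158, q = 0.0736), per the authors' deposited table. The untested copy AXIN2 (1 of 2), on chromosome 1, had 27.7 and 18.3 FPKM there. Both copies thus had the lower value in TCDD, without a call. For axin1, the constitutive scaffold, AXIN1 (2 of 2) had 12.9 and 13.6 FPKM and the row axin1 had 4.48 and 1.47 FPKM per the authors' deposited table, both untested. Of the Dishevelled genes, which relay the signal from Frizzled, DVL3 (2 of 2) had 10.5 and 17.4 FPKM, dvl3a 11.5 and 13.4 FPKM and dvl2 9.58 and 5.88 FPKM per the authors' deposited table.

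Among the transcription factors TCF7L1, which mainly represses Wnt targets, was the only tested gene, at 53.7 and 31.9 FPKM (q = 0.177) per the authors' deposited table. The other 3 were low and untested: lef1 had 4.42 and 2.96 FPKM, tcf7l2 had 1.21 and 2.98 FPKM, and tcf7 had 0.554 and 4.20 FPKM per the authors' deposited table. TCF7L1 had the highest FPKM of the 4 in both groups.

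**Figure D3:**
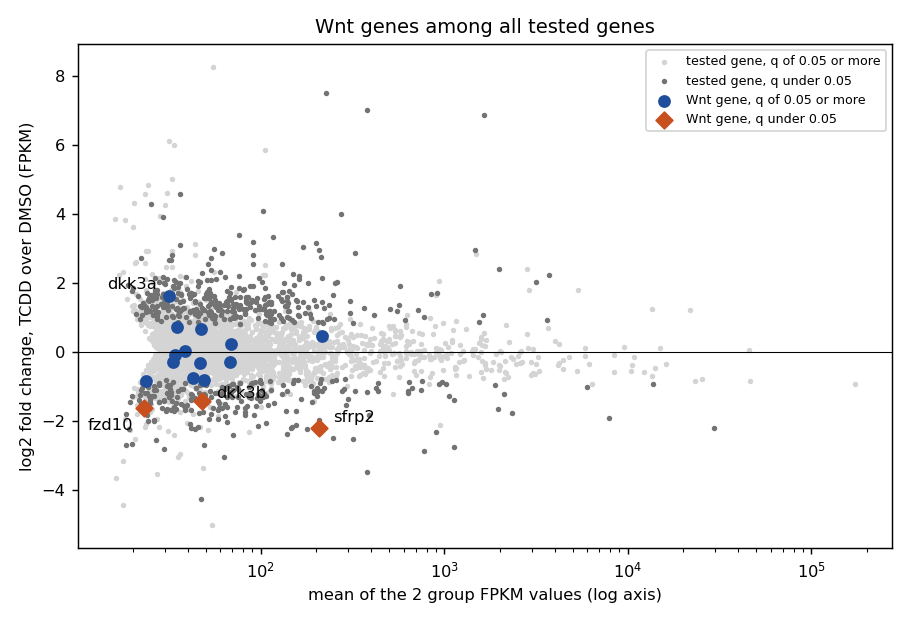
Log2 fold change (TCDD over DMSO) against the mean of the group FPKM values (log axis) for all tested genes above 0 in both groups (grey), with the 16 tested Wnt genes on top. The called Wnt genes sfrp2, fzd10 and dkk3b (diamonds) lie among other called genes of like level, and dkk3a lies above 0 without a call.

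The falls of sfrp2, fzd10 and dkk3b came with lower levels of several, but not all, skeletal and connective tissue markers. Of the tested markers, 2 of 4 for osteoblasts, 4 of 4 for cartilage and notochord and 2 of 5 for fibroblasts and tendon fell, and none of these rose at q under 0.05, where 7.46% of all tested genes fell and 10.7% rose, per the authors' deposited table. In the cartilage count the symbol COL2A1A stands in 2 rows. The marker lists were chosen with earlier results of these data known, so these shares cannot be read as an excess over the background. The called sp7, sox9b and postnb, and krt5 of the epidermis, stand again in the list of target genes below. The untested cartilage row SOX9 had 3.97 and 9.61 FPKM, whereas the untested acana, acanb and col9a1 had lower values in TCDD. Of the fibroblast rows, fn1b had 26.5 and 44.1 FPKM (q = 0.0664), whereas lum had a lower value without a call. The untested fn1 also had a lower value. The osteocalcin gene bglap had 49.5 FPKM in DMSO and a listed 0 in TCDD, untested, whereas the osteoblast phosphatase gene alpl (32.8 and 36.0 FPKM, q = 0.817) and the fibroblast proteoglycan gene dcn (143 and 183 FPKM, q = 0.413) did not pass per the authors' deposited table. Fast muscle markers fell in 2 of 7 tested rows, and of 4 epidermis markers 1 fell and 1 rose. The part of these markers in the Wnt falls was not tested. In bulk tissue, fewer cells of a type and less RNA per cell cannot be told apart.

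Further genes of the pathway were taken from 4 lists that the symbol rule does not cover. They have 153 genes in the table, each counted once, of which 36 were tested, 2 rose and 7 fell, or 25.0% called against 18.2% of all tested genes. The list of target genes alone held 5 of the 7 falls and 1 of the 2 rises. The lists were written with earlier results of these data known, so this share cannot be read as an excess over the background. Of 6 tested surface and secreted modulators, 1 rose and 1 fell, or 33.3% called against the same 18.2%. The gene musk encodes the receptor kinase of the neuromuscular junction and has a Frizzled-like domain. It rose from 9.06 to 30.5 FPKM (3.36-fold, q = 0.00489) per the authors' deposited table, at a locus that overlaps MOAP1. The level of musk reached the lowest mean level of any tested gene, 13.7 FPKM, in TCDD alone. The carboxypeptidase gene cpz, whose product also carries a Frizzled-like domain, fell from 58.2 to 24.7 FPKM (q = 0.0202) per the authors' deposited table.

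None of 7 tested genes among the kinases and nuclear partners passed the authors' test, where 18.2% of all tested genes passed. At an unadjusted p under 0.05 in that test stood 2 of the 7, against 32.6% of all tested genes. The smallest q-values were those of ruvbl1, a chromatin ATPase gene (64.1 and 36.9 FPKM, q = 0.0922), csnk1a1, which encodes the kinase that primes beta-catenin for destruction (387 and 626 FPKM, q = 0.0951), and csnk1e (2 of 2) (19.4 and 33.1 FPKM, q = 0.185), per the authors' deposited table. The partner kinase gene gsk3b had 49.3 and 44.8 FPKM (q = 0.815) there.

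In the planar polarity and calcium branch 1 of 7 tested genes fell and 0 rose, or 14.3% called against 18.2% of all tested genes. The gene that fell was CELSR1, a cadherin gene of the planar polarity core, from 35.1 to 14.3 FPKM (q = 0.00625) per the authors' deposited table. The polarity gene prickle1b had 33.8 and 21.0 FPKM (q = 0.147) per the authors' deposited table.

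Of 16 tested genes known as Wnt targets in some tissue, 5 fell and 1 rose, or 37.5% called against 18.2% of all tested genes. In the authors' test 12 of the 16 had an unadjusted p under 0.05, against 32.6% of all tested genes in either direction. The 12 were 7 lower and 5 higher, in a list written with earlier results known. Of these, mycb, id2a, fn1b and dusp6 were higher without a call, and cyr61 and snai2 lower. The gene mycb had 5.92 and 27.9 FPKM (q = 0.0915), and snai2 46.4 and 16.8 FPKM (q = 0.0535), per the authors' deposited table. Here mycb reached the lowest mean level of any tested gene, 13.7 FPKM, in TCDD alone. The loci of mycb and dusp6 each overlap an unnamed gene, and that of fn1b overlaps SNORA62. Periostin, encoded by postnb, is a matrix protein of bone-lining and tendon cells, and its gene fell from 332 to 83.6 FPKM (q = 0.00105) per the authors' deposited table. The chondrocyte factor gene sox9b fell from 46.6 to 14.6 FPKM (q = 0.0053), and the osteoblast factor gene sp7 from 34.4 to 5.34 FPKM (q = 0.0411), per the authors' deposited table. The level of sp7 reached 13.7 FPKM in DMSO alone. The remaining falls were those of the AP-1 gene JUN (2 of 2), from 115 to 60.4 FPKM (q = 0.0466), and of the basal keratin gene krt5, from 8037 to 3926 FPKM (q = 0.0340), per the authors' deposited table. Another AP-1 gene, fosl1a, rose from 13.9 to 44.4 FPKM (q = 0.0239) there. These called targets are also markers of bone, cartilage, tendon or epidermis, or stress-responsive genes, and the list was written with earlier results for several of them known. Untested feedback genes of the pathway lay in both directions: besides notum1a and AXIN2 (1 of 2) above, RNF43 had 2.38 and 4.38 FPKM, nkd1 6.17 and 5.14 FPKM, and znrf3 11.4 FPKM in both groups, per the authors' deposited table. The Wnt-inducible matrix gene wisp1a had an FPKM of 7.70 in DMSO and 0.753 in TCDD, also untested, per the authors' deposited table. Its relatives differed: the rows wisp2 and wisp2 (2 of 2) had 3.95 and 13.9 FPKM and 2.05 and 5.99 FPKM, and wisp2 (1 of 2) had 5.28 FPKM in DMSO and a listed 0 in TCDD, per the authors' deposited table. These feedback and WISP genes were chosen after their values were seen.

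**Figure D4:**
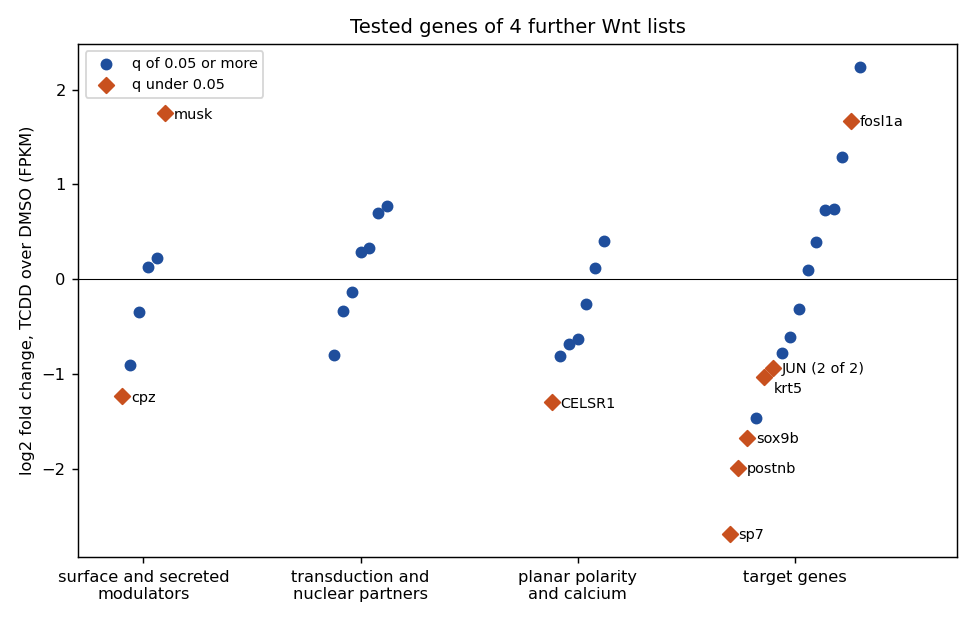
Log2 fold change of FPKM (TCDD over DMSO) for the tested genes of 4 further Wnt lists, 1 point per gene and list. Named diamonds have q under 0.05: musk and fosl1a lie above 0, and cpz, CELSR1 and the other 5 below it.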

How the data were processed

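RNA of 6 libraries, 3 per group, was sequenced on the Ion Torrent PGM, from RNA samples whose integrity number was 9.9 or more, per the labels' protocols. Bowtie2 2.2.6 and DESeq2 are named, without their roles, by the submitters' processing notes. The single table is laid out, per the file headers, as Cuffdiff writes its gene test, and its genome build was not given in the sources used here. From that layout the values the authors deposited for each group were taken to be FPKM. The authors also deposited a test statistic (a score, not used further), a p-value and a q-value per gene. The q-values equalled Benjamini-Hochberg values over the 3286 tested genes to within 5.11e-07.

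From these, log2 fold changes of TCDD over DMSO were computed with no pseudocount. Genes with q under 0.05 were called. No test across samples could be run, since libraries have no values of their own. Every tested Wnt gene was named, as was every untested one with a mean of at least 10 FPKM. Of 4 further lists every called gene was named, or else the 3 with the smallest q. Other genes were chosen after their values were seen. Symbols with a copy letter a or b were matched too, except junb and rhob, which are other genes than jun and rho. Members and lists were chosen with earlier results of these data known. Alternatives covered thresholds, filters, scaling, a pseudocount and overlapping loci. Re-adjustment was tested on simulated data. Python 3.11.15, pandas 2.3.3 and numpy 2.4.6 were used.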

Additional observations from a re-analysis of the deposited data

Results flagged for a closer look

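The antagonist gene sfrp5 was not tested by the authors and had 21.4 FPKM in TCDD against 7.90 FPKM in DMSO per the authors' deposited table. It was the only untested Wnt gene that reached 20 FPKM in TCDD with 2 times the DMSO level or more, and 0 met the mirrored limit. That limit was chosen after seeing the data and was not applied to untested genes outside the Wnt set. The difference in sfrp5 thus has no test and no background share.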

How the results depend on the processing

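The count of Wnt genes called was 3, all lower in TCDD. It was also 3 with a mean of at least 20 FPKM, which left out none of the 16 tested Wnt genes, and without overlapping loci, which left out only the uncalled wls, so neither bears on its stability. At q under 0.01 the count was 1 (sfrp2, background 9.13%). With a mean of at least 50 FPKM, which left 4 tested Wnt genes, it was also 1 (sfrp2, background 21.8%). At q under 0.1 it was 6 (1 higher, 5 lower; background 25.4%), and at an unadjusted p under 0.05 it was 7 (2 higher, 5 lower; background 32.6%).

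The median log2 fold change of tested Wnt genes, -0.29, was -0.047 with equal group totals, which add 0.25 to every gene and put the median of all tested genes at 0.29, and -0.033 with a mean of at least 50 FPKM. Of 99 values for 33 named genes under equal totals, centring or a pseudocount of 1, 95 kept their direction. Among tested genes, apc turned to 0.14 under equal totals and lrp5 to -0.018 when centred on the median of tested genes. The other 2 were the untested frzb, at 0.21, and sostdc1b, at 0.038, both under equal totals.

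No paired analysis was possible because libraries have no values of their own in the table, and leaving out libraries was not run for the same reason. Of the 67 genes 51 have no test; 41 of these lie under the lowest mean of a tested gene and 10 do not, and the cause was not tested.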
